A study of Mus musculus with 6 samples.

Results

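The genes described here are the histone modifiers and chromatin remodellers of aged hippocampal microglia. They were chosen by symbol: all rows of the deposited table whose symbol begins with Kmt2, Kdm, Chd, Setd, Baz1, Baz2, Arid, Smarc or Hdac followed by a number or letter of the family, together with Tet1, Tet2, Tet3, Nsd1, Ash1l, Bptf, Atrx, Ep300 and Crebbp. This gave 90 of the 14148 genes in the table. Microglia, the resident macrophages of the brain, came from male C57BL/6 mice of 18 months, with no genetic change or treatment named in the labels. Live cells positive for CD11b with low CD45 were sorted from the hippocampus by BODIPY, a dye of neutral lipid: weakly stained cells form the lipid droplet-low group (LD-low) and strongly stained cells the lipid droplet-high group (LD-high). Each fraction had 3 libraries, each from the pooled hippocampi of 3 mice and about 10000 cells. The labels do not say whether the pools held different mice, or whether a same-numbered pair came from 1 pool, so p-values measure only how these samples spread, and that spread may be technical.

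DNA in the nucleus is wound around histone proteins, and whether a gene can be read depends in part on how tightly it is packed and on chemical marks on the histone tails. Kmt2 and Setd proteins, Nsd1 and Ash1l belong to the histone methyltransferase families, Kdm proteins remove methyl groups, Ep300 and Crebbp add acetyl groups and Hdac proteins remove them. Chd, Smarc, Bptf, Baz and Atrx proteins belong to ATP-driven complexes that slide, eject or deposit nucleosomes. Some Arid proteins are subunits of such complexes, and Tet enzymes oxidize methylated cytosine in DNA. In macrophages these proteins act at the enhancers through which lineage factors and inflammatory signals set the pattern of gene expression.

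Recovered reads in genes ran from 15895576 to 38489448 per library. Testing required 10 or more normalized counts in 3 or more libraries, and 86 of the 90 members met this. Normalized counts are reads divided by 1 size factor per library. Microglial markers were high in both fractions, the summed level of 6 genes lying between 1249070 and 1538220 normalized counts in every library. All 6 neutrophil markers in the table (S100a8, S100a9, Ngp, Camp, Ltf and Lcn2) were at 0 in the 3 LD-high libraries and summed to 1220, 1583 and 4523 in LD-low replicates 1, 2 and 3. The 8 choroid plexus markers, of which 3 were called higher, summed to between 366 and 1795 in LD-low and between 1719 and 5592 in LD-high libraries. The 6 oligodendrocyte markers summed to between 4641 and 4894 and between 5452 and 6013, and the 6 astrocyte markers, mostly through Slc1a3, to between 6480 and 7837 and between 7974 and 8839, with 0 called in either list. Border-associated macrophage markers (9, with 0 called) overlapped, with sums between 254 and 567 in LD-low and between 167 and 424 in LD-high libraries. The part of these cells in the results was not tested.

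Genes of 4 Kmt2 proteins, of Ash1l, Nsd1 and Setd5, of the remodellers Chd7, Chd2, Bptf, Baz2b and Atrx, and of the Tet2 and Tet3 enzymes were lower in LD-high microglia. Of the 86 tested members, 14 fell in LD-high libraries (16.3%) and 0 rose, with limma and an adjusted p under 0.05 over all tested genes. Over all 11624 tested genes 1.82% were lower and 1.53% higher by the same rule (212 and 178 genes). With all libraries scaled to equal totals these were 233 (2%) and 118 genes, and 15 members were lower. At an unadjusted p under 0.05, 31 members were lower and 2 higher, against 10.1% and 9.68% of all tested genes. On the recovered reads, edgeR called 15 members lower and 0 higher, where it called 1.81% of all genes lower and 1.44% higher. DESeq2, which called more genes in all (3.04% lower and 3.23% higher), called 17 members lower and 0 higher. The median log2 change of the tested members was -0.13, against -0.01 over all tested genes, and 62 of the 86 lay below 0. The values of the 2 fractions did not overlap for 27 members that were lower (31.4%, against 11.7% of all tested genes) and for 4 that were higher (4.65%, against 12.7%). In bulk RNA, fewer cells that express a gene and less RNA of it per cell cannot be told apart.

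**Figure D1:**
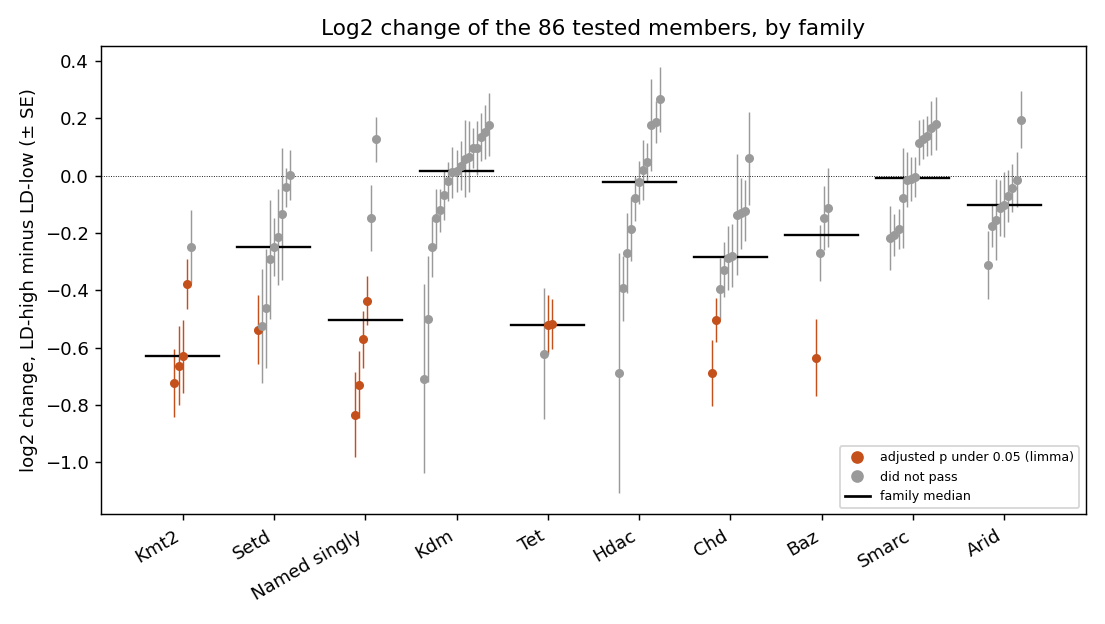
Log2 change (LD-high minus LD-low, points, with its SE as bars) of the 86 tested members on the y axis, grouped by family on the x axis, with the family median as a black line. The 14 members that passed limma's test are orange and all lie below 0, with 4 of them in the Kmt2 family and none among the Kdm, Hdac, Smarc and Arid families.

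The Kmt2 family, most of whose members methylate H3K4, had the largest share of falls, 4 of its 5 members. Its median log2 change was -0.63. Kmt2a, also known as Mll1, the catalytic subunit of a complex that keeps Hox and other developmental genes active (mm9 chromosome 9, 44611438 to 44689379), had 712, 779 and 782 normalized counts in LD-low replicates 1, 2 and 3 and 530.3, 394 and 461 in LD-high replicates 1, 2 and 3. Its highest LD-high value lay below its lowest LD-low value. The mean of Kmt2a was 39.1% lower, and it fell by 0.72 ± 0.12 (SE) on the log2 scale (adjusted p 0.00667). Kmt2c and Kmt2d, closely related enzymes that methylate H3K4 at enhancers, both fell. Kmt2c (chromosome 5, 24777612 to 25004601) had 1260.2, 1220.1 and 1411 normalized counts in LD-low and 1065, 718 and 763 in LD-high libraries, in the same order of replicates, and fell by 0.63 ± 0.13 on the log2 scale (adjusted p 0.0183). Kmt2d (chromosome 15, 98662100 to 98701614) had 1363, 1090.2 and 1647 in LD-low and 1017, 814 and 745 in LD-high libraries and fell by 0.66 ± 0.14 (adjusted p 0.0239). For both genes LD-high replicate 1 lay closest to the LD-low group, and the groups stayed apart. Kmt2e, whose product binds methylated H3K4 through a PHD finger (chromosome 5, 22940259 to 23010053), was the member of the family with the highest level per kb of exon, 489 normalized counts averaged over the libraries. Its normalized counts were 3581, 4367 and 4495 in LD-low and 3329, 3007 and 3201 in LD-high libraries, and it fell by 0.38 ± 0.09 (adjusted p 0.0302), with LD-low replicate 1 the closest to the LD-high group. Kmt2e shares 880 exonic bases with Srpk2 on the opposite strand, and such libraries do not mark strand, so its reads could include some of that gene. The remaining member, Kmt2b, did not pass, with a log2 change of -0.25 ± 0.13 (adjusted p 0.305).

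Of the methyltransferases outside the Kmt2 family, Ash1l, Nsd1 and Setd5 fell. Ash1l, an enzyme that methylates H3K36 and is linked to active genes (chromosome 3, 88769734 to 88883295), had the lowest log2 change of all tested members. Its normalized counts were 989, 1221 and 1323 in LD-low and 845, 532 and 626 in LD-high libraries, 43.3% lower in the mean, and it fell by 0.83 ± 0.15 (adjusted p 0.0108). Both groups of Ash1l spread widely, LD-low replicate 1 being the lowest of its group and LD-high replicate 1 the highest of its own. Nsd1, which places dimethyl marks on H3K36 (chromosome 13, 55311143 to 55419686), had tight LD-high values of 1102, 1149 and 1100.3 against 1601, 1380.3 and 1561 in LD-low libraries. It fell by 0.44 ± 0.08 with an adjusted p of 0.0163. Setd5 (chromosome 6, 113027359 to 113103429), a SET-domain gene, had 575, 648 and 714 normalized counts in LD-low and 497, 414 and 422 in LD-high libraries and fell by 0.54 ± 0.12 (adjusted p 0.0283). The groups did not overlap for either gene. The other 8 tested Setd genes did not pass. Among them Setd2, the enzyme that trimethylates H3K36, had a log2 change of -0.25 ± 0.10 with overlapping groups, while the H3K4 methyltransferase genes Setd1a and Setd1b, at low counts, had -0.52 ± 0.20 and -0.46 ± 0.21. Setd3, an actin histidine methyltransferase gene with the highest level per kb of the family (532), had -0.04 ± 0.07, and 3523 of the exonic bases of Setd1a also belong to Hsd3b7 on the same strand.

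The chromodomain remodellers included the member with the smallest p of all. Chd7, a remodeller of enhancers whose human gene is mutated in CHARGE syndrome (chromosome 4, 8617553 to 8794806), had 3680.3, 3475 and 4024 normalized counts in LD-low and 2789, 2472 and 2616 in LD-high libraries. The gap between the fractions was wider than the range within either. The mean was 29.5% lower, and Chd7 fell by 0.50 ± 0.08 (adjusted p 0.00399). Chd7 had the highest level per kb of its family (230.4 normalized counts). Chd2, which binds active genes and helps deposit the histone variant H3.3 (chromosome 7, 80571577 to 80686632), had 890.4, 969 and 933 in LD-low and 682, 501 and 563 in LD-high libraries and fell by 0.69 ± 0.11 (adjusted p 0.00711). The other 8 of the 10 tested Chd symbols, among them the antisense transcript Chd3os, did not pass. Of the 10, 9 lay below 0 and only Chd3os above, with a median of -0.28. Chd9 and Chd4, the ATPase of the NuRD complex, came nearest, with log2 changes of -0.39 ± 0.11 and -0.33 ± 0.10 and adjusted p values of 0.0543 and 0.0765. Neither overlapped between groups, and DESeq2 called both. Chd8 had a log2 change of -0.13 ± 0.12, and the antisense transcript Chd3os, which shares its locus with Chd3, one of 0.06 ± 0.16 against -0.14 ± 0.21 for Chd3.

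Bptf, the largest subunit of the NURF remodelling complex, which reads H3K4 trimethylation (chromosome 11, 106894395 to 106993441), had a narrow range in both fractions. Its normalized counts were 446, 469 and 471 in LD-low and 285, 274 and 275 in LD-high libraries. The gap between the fractions was several times the range within either. The mean was 39.8% lower, and Bptf fell by 0.73 ± 0.12 on the log2 scale (adjusted p 0.00605). Baz2b, a bromodomain gene of ISWI-type complexes (chromosome 2, 59737420 to 60047896), had 998, 1152 and 1234 in LD-low and 784, 566 and 855 in LD-high libraries and fell by 0.63 ± 0.13 (adjusted p 0.0248), and it shares 238 exonic bases with a non-coding transcript on the opposite strand. LD-high replicate 2 was far below the other LD-high libraries for Baz2b, and LD-high replicate 3 the closest to the LD-low group. The other 3 Baz genes did not pass: Baz1a, Baz1b and Baz2a had log2 changes of -0.27 ± 0.10, -0.15 ± 0.11 and -0.11 ± 0.14, and Baz1b had the highest level per kb of the family (139). Smarca5, the ISWI ATPase that works with several of these partners, had 2997, 3023 and 2758 normalized counts in LD-low and 2882, 3005 and 2858 in LD-high libraries, and the groups overlapped. Atrx, a remodeller that deposits H3.3 at repeats and telomeres with its partner Daxx (chromosome X, 102992954 to 103124736), had 1352, 1491 and 1640.3 in LD-low and 1076, 893 and 1049 in LD-high libraries and fell by 0.57 ± 0.10 (adjusted p 0.0091). Its groups lay well apart, LD-high replicate 2 again being the lowest.

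Of the 3 Tet enzymes, Tet2 and Tet3 fell. Tet2, often mutated in clonal blood cell expansions (chromosome 3, 133126643 to 133207354), had the highest level per kb of the family (116) and normalized counts of 1247, 1229.8 and 1296 in LD-low and 947, 860.1 and 829.8 in LD-high libraries. The LD-low values differed little among themselves, and the mean of Tet2 was 30.1% lower in LD-high libraries (log2 change -0.52 ± 0.09, adjusted p 0.00758). Tet3 (chromosome 6, 83312367 to 83391672) had 1053, 1059.8 and 1188 in LD-low and 865, 681 and 763 in LD-high libraries and fell by 0.52 ± 0.10 (adjusted p 0.0179). Tet1, the least abundant, had a log2 change of -0.62 ± 0.23 with overlapping groups and did not pass (adjusted p 0.15).

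**Figure D2:**
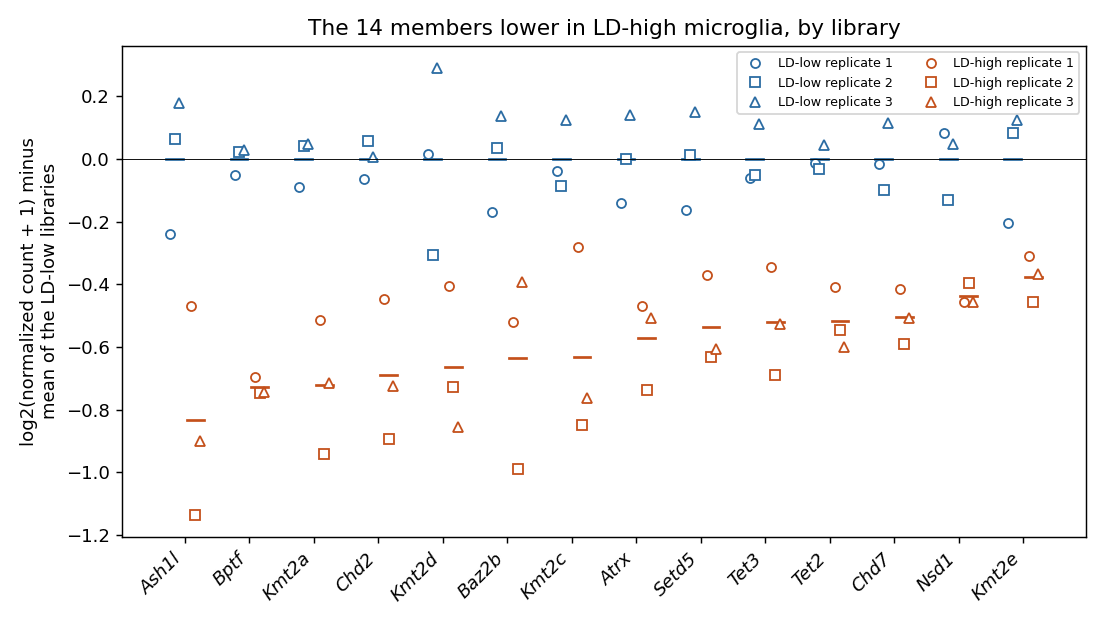
The 14 members that fell, ordered by log2 change on the x axis; the y axis gives log2(normalized count + 1) of each library minus the mean of the 3 LD-low libraries, with a line at each group mean and 1 symbol shape per replicate number. All LD-high points lie below all LD-low points of the same gene, LD-low replicate 3 is the highest library for 12 genes and LD-high replicate 2 the lowest for 11.

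The falls were not spread evenly over the libraries. LD-low replicate 3 held the highest value for 12 of the 14 genes, and LD-high replicate 2 the lowest for 11 and LD-high replicate 3 for the other 3. LD-low replicate 3 was also the library with the most neutrophil marker counts (4523), and LD-low replicates 1 and 2 had 1220 and 1583. Every LD-high library was at 0, so these markers followed the fractions, and their part in the falls was not tested. Without LD-low replicate 3, 3 members remained lower (Chd7, Bptf and Chd2), at a background of 0.301% of tested genes, and the median of the members was -0.08. The log2 changes of the 14 genes were then 78.2% to 99.7% of their values with all libraries, with a median of 89.3%. Leaving out LD-low replicate 2 gave 9 lower members, at a background of 0.525%. Leaving out LD-high replicate 2 or LD-high replicate 3 gave 8 each, at backgrounds of 1.14% and 0.533%. Limma with no mean-variance trend gave 1 (Bptf) and called 14 genes lower in all (0.12%). Chd7, Bptf and Chd2 passed in all 6 fits that left out 1 library. Kmt2a, Tet2, Atrx and Ash1l were lost in 1 of them each (without LD-low replicate 3), Nsd1 in 2, Kmt2d and Baz2b in 3, and Kmt2c, Kmt2e, Tet3 and Setd5 in 4. The highest adjusted p of these fits lay between 0.052 for Kmt2a and 0.143 for Kmt2e.

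Exonic length, the bases covered by all annotated exons of a gene and not the length of 1 transcript, moved with the result. The 14 members that fell had a median exonic length of 13455 bases, against 6795 for the other members and 3716 for all tested genes, by the mm9 gene models of GENCODE. Over the 85 tested members with a length, Spearman's rho between exonic length and log2 change was -0.47; over all 11357 tested genes with a length it was 0.01. Both describe genes of the same 6 libraries and carry no p. Of the 6 members longer than 15000 bases, 5 fell (Kmt2c, Kmt2d, Baz2b, Kmt2a and Atrx), and their class had a median log2 change of -0.63. Among the 93 tested non-members of that class 14% were lower, with a median of -0.16. Between 10000 and 15000 bases 6 of 18 members fell, with a median of -0.35, against 3.51% and -0.01 for 399 non-members. Below 5000 bases none of 19 members passed. Among non-members 1.59% were lower between 1500 and 3000 bases and 1.17% between 3000 and 5000. A count of 0 among 19 is near these shares and is no result about short members. With each library centred within classes of exonic length on the non-members, a setting chosen after seeing the data, 13 of the 14 were still called and Baz2b was not, with 1.91% of all genes lower. A smooth correction for length kept all 14, with 1.79% of all genes lower. Between GC content and log2 change, rho was 0.016 over the same members and -0.08 over all tested genes with a length. The median GC content was 46.3% for the 14 members that fell, 51.0% for the other tested members and 49.8% for all tested genes. The correction for GC kept all 14.

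**Figure D3:**
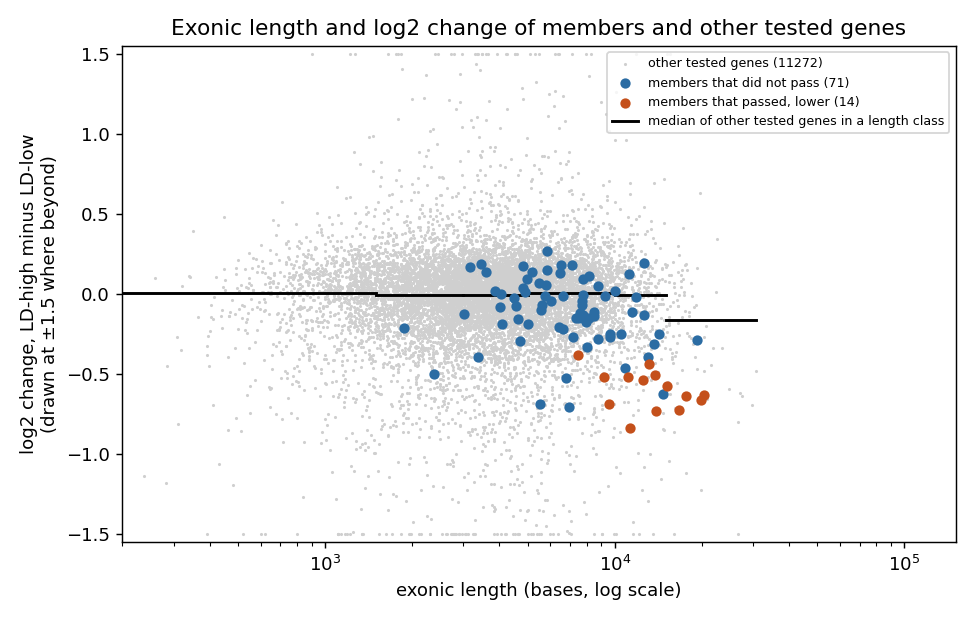
Exonic length in bases (x axis, log scale) against log2 change (y axis, LD-high minus LD-low) for 85 tested members in colour and the other tested genes in grey, with black lines at the median of the other genes in each length class. The 14 members that fell sit at lengths of 7494 bases and above, and the line of other genes drops to -0.16 beyond 15000 bases.

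RefSeq starts of the genes that fell were compared because these members moved together. RefSeq promoters (GRCm38.p6, 250 bases before to 50 after a start) were matched for 9 of the 14 (Ash1l, Chd2, Chd7, Kmt2e and Nsd1 had no entry) and for 65 of the 90 members. The 150 bases before the start of 4 of them are shown, 3 rich in CpG and 1 poor, with matches to the motifs named next in capitals, 5′ to 3′ on the gene's strand:
Bptf (chr11:107132148-107132297, minus strand): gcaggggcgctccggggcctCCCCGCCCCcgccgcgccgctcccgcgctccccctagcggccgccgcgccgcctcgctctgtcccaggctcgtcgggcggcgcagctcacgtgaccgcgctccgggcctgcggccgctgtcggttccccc
Kmt2a (chr9:44881290-44881439, minus strand): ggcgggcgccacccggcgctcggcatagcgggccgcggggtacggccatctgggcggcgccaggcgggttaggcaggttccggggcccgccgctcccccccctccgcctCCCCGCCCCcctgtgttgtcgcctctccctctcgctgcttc
Tet2 (chr3:133544391-133544540, minus strand): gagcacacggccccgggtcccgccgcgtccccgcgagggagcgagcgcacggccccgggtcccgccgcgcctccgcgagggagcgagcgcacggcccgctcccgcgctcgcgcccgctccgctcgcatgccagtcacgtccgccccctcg
Baz2b (chr2:60125741-60125890, minus strand): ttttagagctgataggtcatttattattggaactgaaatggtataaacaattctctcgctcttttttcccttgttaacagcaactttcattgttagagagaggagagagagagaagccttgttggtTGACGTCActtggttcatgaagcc
Exact matches on both strands were sought to 5 motifs, none of which contains another. These were a GC box (GGGGCGGGG) and the cyclic AMP response element (TGACGTCA). The core bound by ETS factors was written CCGGAAG. For the box bound by NF-Y the letters sought were CCAATCA. The letters TATAAAA stood for the TATA box. A GC box lay in 3 of the 9 windows (Bptf, Kmt2a and Kmt2c), against 18.3% of the 82 promoters of members and 11.4% of all 32851 promoters. The response element lay in 1 of the 9, Baz2b, and in 1.79% of all promoters. None of the 9 held the letters of the ETS core, the NF-Y box or the TATA box, which 8.86%, 7.82% and 5.48% of all promoters did. The shorter letters CCAAT, on either strand, do lie in the windows of at least Atrx, Baz2b and Tet3. Their share over all promoters was not counted, so no lack of NF-Y boxes is shown. The number of CpG dinucleotides per window ranged from 1 (Setd5) to 57 (Tet2) among the 9, with a median of 27, against 25.5 for members and 7 for all promoters. A gene can have several starts, and a window may lie at one that is not its first. By the shift between builds seen for Tet3 on the same chromosome, the Setd5 window (113104785 to 113104934) lies inside the gene. Its CpG count thus does not describe the first start of Setd5, and whether the Baz2b window lies at a first start was not tested. These counts and matches describe letters in a window and name no binding site.

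None of the 17 tested Kdm demethylase genes was called by limma, edgeR or DESeq2, and 3 had an unadjusted p under 0.05. In a family of this size, as in the Hdac, Smarc and Arid families, a count of 0 is near the 1.82% of all genes called lower and is no result about the family. The median log2 change of the Kdm genes was 0.017, with 10 above 0. The 3 were Kdm5a, Kdm8 and Kdm6b, all below 0. Kdm5a, an H3K4 demethylase, had 1581, 1884 and 1572 normalized counts in LD-low and 1653, 1271 and 1327 in LD-high libraries, and the groups overlapped (log2 change -0.25 ± 0.11, adjusted p 0.206). Kdm6b, an H3K27 demethylase induced in stimulated macrophages, was low at 62.4, 75.8 and 79.9 in LD-low and 51.4, 25.8 and 63.4 in LD-high libraries (-0.71 ± 0.33, adjusted p 0.251). Its relative Kdm6a, a subunit of the Kmt2c and Kmt2d complexes, had -0.15 ± 0.10. Kdm3a, an H3K9 demethylase with the highest level per kb of the family (743), had 0.10 ± 0.07, and Kdm1a, also known as Lsd1, 0.14 ± 0.08.

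The acetyltransferase genes did not pass. Ep300, an acetyltransferase of enhancers with the highest level per kb among the 6 genes chosen singly (252), had 2518, 2724 and 2875 normalized counts in LD-low and 3232, 2859 and 2777 in LD-high libraries, a log2 change of 0.13 ± 0.08 (adjusted p 0.397). Crebbp, its close relative, had 1363, 1283 and 1425 and 1525, 1150.1 and 1045, a log2 change of -0.15 ± 0.12 (adjusted p 0.515). The groups overlapped for both. Of the 11 Hdac genes, limma and edgeR called 0 and DESeq2 called Hdac10, with 1 lower and 2 higher at an unadjusted p under 0.05 and a median log2 change of -0.02. Hdac1, a class I deacetylase of the NuRD, Sin3 and CoREST complexes and the most abundant of the family per kb (653), had 2149, 2053 and 2101 in LD-low and 2274, 2541 and 2376 in LD-high libraries, so every LD-high value was the higher. The log2 change was 0.19 ± 0.07 (adjusted p 0.17). Hdac6, a cytoplasmic deacetylase of tubulin, had the highest log2 change of all tested members, 0.27 ± 0.11 (adjusted p 0.205), without overlap. Hdac10, known as a polyamine deacetylase, had 1259.5, 1796 and 1470.4 and 1069, 1232 and 1114, a log2 change of -0.39 ± 0.11 (adjusted p 0.0697 in limma and 0.021 in DESeq2). Hdac3, the catalytic subunit of the NCoR and SMRT complexes, had -0.08 ± 0.08, and Hdac2 -0.02 ± 0.07. The lowest change of the family was that of Hdac7, -0.69 ± 0.42, with an adjusted p of 0.381.

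The Smarc genes, mostly subunits of SWI/SNF (BAF) complexes, had small log2 changes. None of the 12 tested Smarc genes passed with limma, edgeR or DESeq2, 2 were lower at an unadjusted p under 0.05 (Smarca2 and Smarcc2), and the log2 changes ran from -0.22 to 0.18. The 2 alternative ATPases had changes of opposite sign that did not pass. Smarca2, also known as Brm, had 2872, 2698 and 2865 in LD-low and 2615, 2379.8 and 2314 in LD-high libraries, a log2 change of -0.21 ± 0.07 (adjusted p 0.134). Smarca4, also known as Brg1, had 2382, 2363 and 2383 in LD-low and 2733, 2543 and 2526 in LD-high libraries, a log2 change of 0.13 ± 0.07 (adjusted p 0.321). The groups overlapped for neither, Smarca2 being the lower and Smarca4 the higher in LD-high libraries. The accessory subunit gene Smarcd2 had the highest level per kb of all tested members (961) and a log2 change of 0.14 ± 0.07, and the core subunit gene Smarcb1 had 0.12 ± 0.08. Of the 9 Arid genes 0 passed by any of the 3 tools, with 2 lower at an unadjusted p under 0.05 (Arid4b and Arid3b) and a median of -0.10. Arid1a and Arid1b, alternative subunits of BAF, had log2 changes of -0.11 ± 0.10 and 0.20 ± 0.10; Arid4b, of the Sin3 complex, had -0.31 ± 0.12 and its relative Arid4a, the highest of the family per kb (316), -0.07 ± 0.09.

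Several members share exonic bases with another gene, so that reads could be split or mixed. Among them are Smarcd3 (2466 bases), Chd8 (824), Chd3 (479), Arid3b (360), Baz1a (346), Kdm7a (287), Kdm6b (286), Kdm5a (276) and Arid4b (170).

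The 4 remaining members had too few normalized counts for the filter, and none of them passed when all genes were tested. Chd5, a remodeller of neurons, was listed at 0 in 3 libraries and reached 3.34 normalized counts at most, and Smarca1 was at 0 in 5 libraries with 5.21 in LD-high replicate 1. A count of 0 allows up to 3 reads, or 2.11 to 5.01 normalized counts depending on the library, for counting error. Kdm4d lay between 0 and 6.72, and the pseudogene Smarca5-ps, whose reads can be confused with those of Smarca5, between 3.25 and 21.7.

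Ratios between related members within a library, taken here after adding 1 to each normalized count, depend little on the size factors. For 16 pairs of close relatives, chosen with the values known, the log2 ratio was compared between fractions with a two-sided exact permutation test, whose smallest possible p with 3 against 3 is 0.1. The groups did not overlap for 5 pairs, each at this smallest p, and Benjamini-Hochberg adjustment over the 16 pairs gave 0.32, so none passed. Smarca4/Smarca2 was the most uniform: the ratio was 0.829, 0.876 and 0.832 in LD-low and 1.05, 1.07 and 1.09 in LD-high libraries. The LD-high libraries thus held more reads of Smarca4 than of Smarca2 and the LD-low libraries fewer, a difference of 0.34 on the log2 scale. The Kmt2a/Kmt2b ratio was 1.47, 1.92 and 1.52 in LD-low and 1.22, 1.09 and 1.20 in LD-high libraries, a difference of -0.48, which was -0.31 with centring by length class. Chd7/Chd8 differed by -0.37, Baz2a/Baz2b by 0.52 and Hdac1/Hdac2 by 0.21. Baz2b is also the longer gene of its pair, with 17605 exonic bases against 8488 for Baz2a. Centring by length class took the log2 change of Baz2b from -0.63 to -0.48 and that of Baz2a from -0.11 to -0.13. Ep300/Crebbp was 1.85, 2.12 and 2.02 in LD-low and 2.12, 2.48 and 2.65 in LD-high libraries (exact permutation p = 0.2), with the lowest LD-high value just under the highest LD-low one. Kmt2c/Kmt2d and Tet2/Tet3, pairs of which both members fell, differed by 0.032 and 0.0021.

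**Figure D4:**
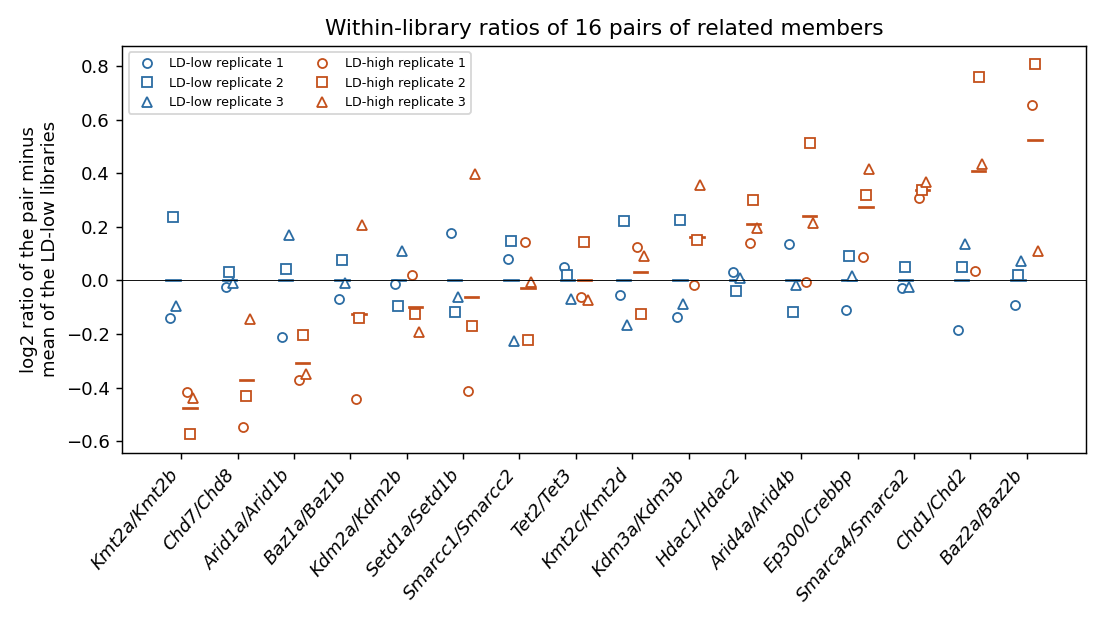
Log2 ratio of normalized counts, each with 1 added, within a library for 16 pairs of related members (x axis), minus the mean of the LD-low libraries (y axis), with a line at each group mean and 1 symbol shape per replicate number. Smarca4/Smarca2 shows 2 tight groups that differ by 0.34, while Kmt2c/Kmt2d and Tet2/Tet3 have overlapping groups.

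Chromatin genes outside these families were examined through a list fixed by complex, with earlier results known. Of its 112 symbols, 105 were tested. Near the 1.82% of all tested genes that were lower and the 1.53% that were higher, 0 fell and 2 rose (1.90%) in limma. The same numbers were called by edgeR and by DESeq2. At an unadjusted p under 0.05, 10 were lower and 6 higher, and the median log2 change was -0.04. Rbbp4, a histone-binding subunit shared by polycomb, NuRD and Sin3 complexes, had 5112, 5293 and 5182 normalized counts in LD-low and 7499.5, 6631 and 6802 in LD-high libraries and rose by 0.42 ± 0.07 (adjusted p 0.00566), passing in all 6 fits without 1 library. Sirt2, a deacetylase of tubulin and histones that is abundant in oligodendrocytes, had 1708, 1847 and 1814 and 2195, 2221 and 2302 and rose by 0.32 ± 0.07 (adjusted p 0.0287), but not in 5 of those 6 fits, where its adjusted p reached 0.1. The oligodendrocyte marker sum given above was also higher in the LD-high libraries, and its part in the Sirt2 value was not tested. The list held 8 partners of the H3K4 methyltransferases: Wdr5, Ash2l, Rbbp5 and Dpy30, which these complexes share, and Men1, Paxip1, Ncoa6 and Cxxc1, each of which belongs to some of them. None of the 8 passed, and 0 had an unadjusted p under 0.05, at a median of 0.06. Among 8 genes, 0 passing is near the 1.82% of all tested genes called lower and is no result about these partners. Of the list, 11 tested genes had more than 10000 exonic bases, and 0 of them passed, against 11 of 24 members of that length. Among non-members 3.51% were lower between 10000 and 15000 bases and 14% beyond. A count of 0 among 11 genes is near these shares and is no result about the list. The 2 of the 11 nearest to passing were Rsf1, of an ISWI complex, and the DNA methyltransferase gene Dnmt3a. Their log2 changes were -0.33 ± 0.10 and -0.25 ± 0.08 (adjusted p 0.0851 and 0.11 in limma). The difference between the 2 lists was not tested.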

How the data were processed

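The labels' protocols describe Smart-seq amplification and Nextera tagmentation, a chemistry that keeps no strand. The submitters' processing notes name FastQC 0.11.4, STAR 2.5.1b, DESeq2 and the mm9 build. Which annotation, strand setting and filter on genes were used is not given in the sources used here. Values deposited by the authors are a normalized signal (reads over a size factor for each library), and 100% of values returned whole reads within 0.01. Intervals and floors cover counting error only.

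The test was limma 3.58.1 (R 4.3.3) on log2(normalized count + 1), with variances following the mean, two-sided, over 11624 genes. Benjamini-Hochberg adjustment was used with a threshold of 0.05. The test was first run on simulated data with independent libraries, which cannot show how p-values behave where pools share mice. Log2 changes are on the log2(normalized count + 1) scale, which understates changes of low genes. Count tests on recovered reads (edgeR 4.0.16, DESeq2 1.42.0) were alternatives, as were other pseudocounts, filters and scalings, length and GC corrections, the replicate number as a block, and each library left out. Exonic lengths, GC and positions came from GENCODE vM1 on NCBIM37 (mm9), matched for 89 of 90 members and 13647 of 14148 genes. Members, lists, pairs and motifs were chosen with earlier results of these data known. Named by rule were members past the threshold, the smallest p and highest level per kb of each family, the 3 highest and 3 lowest changes without overlap at a mean of at least 50, 14 always given, and other chromatin genes past the threshold. Other genes were named after their values were seen.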

Additional observations from a re-analysis of the deposited data

How the results depend on the processing

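All 14 members that fell stayed called with pseudocounts of 0.5 and 5, both filters, TMM, quantile and equal-total scaling, the length and GC corrections, edgeR and DESeq2. Limma without a trend called 1 member lower and 0 of the other chromatin genes higher, against 14 and 2. Without 1 library, the count of lower members ranged from 3 to 17, that of higher members stayed at 0, and the other chromatin genes ranged from 1 to 2 higher and 0 to 1 lower. Quantile normalization and equal totals each left 1 other chromatin gene higher. The members' median log2 change ran from -0.18 with equal totals to -0.08 without LD-low replicate 3, against -0.13 in the main fit. Within a fraction, the members' median level per library had an SD of 0.06 between replicates. This SD describes single libraries and is no error of the median change. Of the genes named by rule, 1 changed sign: Arid4a, which had not passed (-0.07), ranged from -0.12 to 0.022 without 1 library, its sign changing without LD-high replicate 1. The cause of these shifts was not tested. The labels do not say whether the replicate numbers pair the samples, and the pairing was not used. Deviations from the group means correlated at 0.161, 0.132 and 0.064 for same-numbered libraries, each library correlating best with its own number. With the replicate block 18 members were lower and 0 higher, all 14 among them, and 3 other chromatin genes were lower; with the block and the length correction 19 members were lower and 1 higher (Arid1b), and 1 other chromatin gene was lower. Over all genes the block took the calls from 212 lower and 178 higher to 530 lower and 560 higher. Chd5, Kdm4d, Smarca1 and Smarca5-ps were tested only with no filter, where none passed; at these depths a 0 allows up to 3 reads.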
